A study of Homo sapiens with 3 samples.

Results

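The S100 genes encode small calcium-binding proteins, and 10 of them were followed here in single HCT116 cells: S100A2, S100A3, S100A4, S100A6, S100A10, S100A11, S100A13, S100A14, S100A16 and S100P. They were taken by symbol, all 10 were found, and they are 10 of the 22 features whose symbol starts with S100 among 19912 features. HCT116 is a human colorectal carcinoma line, here carrying a GFP-tagged histone H2B. The cells were cultured in an organ-on-chip, a microfluidic device with a top and a bottom channel. There were 3 groups: cells collected from the bottom channel of chips stretched in a peristalsis-like way for 6 days (called invaded by the submitters, here stretched bottom), cells left in the top channel of stretched chips (non-invaded, here stretched top), and cells from the top channel of chips without stretch (non-invaded, here unstretched top). All 3 groups are the same labelled line, were released with trypsin, were sorted by their GFP signal and went into 3′ droplet libraries. Each group is 1 library, and the sources used here do not give how many chips went into it. No test between groups was therefore possible, differences are described by size, and every interval below covers counting error only.

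An S100 protein typically works as a dimer in which calcium binding to EF-hand loops opens a surface that docks onto a partner such as an annexin, a myosin heavy chain or a membrane receptor. S100A10 is the exception, having lost calcium binding, and is found in a complex with annexin A2. In colorectal carcinoma the family is best known for S100A4, also called metastasin, a Wnt target gene associated with metastasis, and several other members are abundant in epithelia.

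In GENCODE release 29 (GRCh38), 9 of the 10 members lay on the minus strand of chromosome 1, within a block of 17 S100 genes at chr1:151982915-153632039. S100P was on chromosome 4, at chr4:6693069-6697170. S100A6 (chr1:153534599-153536244) and S100A4 (chr1:153543613-153550136) were 7369 bases apart, and the annotated span of S100A4 contains that of S100A3 (chr1:153547329-153549372). All 10 members had promoter windows in RefSeq (GRCh38.p14), 14 windows in all, each of 250 bases before and 50 after a transcription start. Printed here are the windows of the member called lower in the bottom channel (S100A4, chr1:153545757-153546056), of the most abundant member (S100A6, chr1:153535942-153536241), which was higher there, and of the member with the largest ratio in the bottom channel (S100A10, chr1:151993810-151994109), all on the minus strand and written 5′ to 3′. Capitals mark matches to TATAAA (S100A4), to the GC box GGGCGG (S100A6 and S100A10) and to the hypoxia response core ACGTG, here as its reverse complement CACGT (S100A10).
S100A4: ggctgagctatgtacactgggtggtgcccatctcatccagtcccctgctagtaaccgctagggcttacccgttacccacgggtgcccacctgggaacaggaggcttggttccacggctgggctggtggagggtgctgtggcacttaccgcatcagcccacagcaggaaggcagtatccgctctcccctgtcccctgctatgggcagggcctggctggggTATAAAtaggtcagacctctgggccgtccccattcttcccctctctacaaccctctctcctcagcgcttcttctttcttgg
S100A6: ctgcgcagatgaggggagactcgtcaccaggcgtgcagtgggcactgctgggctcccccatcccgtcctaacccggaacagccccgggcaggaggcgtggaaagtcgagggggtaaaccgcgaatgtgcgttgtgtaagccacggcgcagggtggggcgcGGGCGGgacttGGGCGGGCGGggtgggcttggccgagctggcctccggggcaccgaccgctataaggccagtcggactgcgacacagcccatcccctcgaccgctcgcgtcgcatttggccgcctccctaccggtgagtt
S100A10: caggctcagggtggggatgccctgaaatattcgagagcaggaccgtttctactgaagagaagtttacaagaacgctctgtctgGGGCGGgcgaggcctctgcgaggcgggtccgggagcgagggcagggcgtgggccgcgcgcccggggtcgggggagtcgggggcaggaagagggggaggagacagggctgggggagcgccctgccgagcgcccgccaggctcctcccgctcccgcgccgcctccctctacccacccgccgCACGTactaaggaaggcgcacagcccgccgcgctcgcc

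Motifs were searched on both strands. The TATA box letters TATAAA began at position −31 in the S100A4 window and were also found for S100A13 and S100P. That made 3 of the 14 member windows, against 11.5% of all 35116 promoter windows of this length. The S100A6 window held GGGCGG at positions −90, −79 and −75, the last 2 overlapping, and the S100A10 window held it at position −167. Among the members, 6 had GGGCGG (S100A3, S100A6, S100A10, S100A11, S100A13 and S100A16), in 6 of the 14 windows. The motif was in 44.95% of all windows. ACGTG was found for S100A10, at position 13, and for S100A16, in 2 of the 14 windows, against 21.4% of all windows. The AP-1 letters TGANTCA matched S100A2 and S100A3, in 2 of the 14 windows (7.71% of all windows). The STAT letters TTCNNNGAA matched S100A3, in 1 window (7.66%), and the TCF/LEF letters CTTTGAT matched none of the 14 windows (2.62%). These are matches of letters in a window and were not measured as binding sites.

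The libraries held 1951 kept cells from the stretched bottom, 20121 from the stretched top and 17206 from the unstretched top, with 76641034, 210814252 and 212503735 UMIs. The bottom library stood apart. Its median cell had 40387 UMIs, against 9384 for the stretched and 10964 for the unstretched top, and its median mitochondrial share was 4.09%, against 10.4% and 9.64%. Of 54442 distinct barcodes, 316 occurred in more than 1 library, among them 106, 148 and 143 kept cells. All 10 epithelial markers exceeded 10 CPM in each library and summed to 5211, 4818 and 4853 CPM. Fibroblast markers summed to 4.54, 5.81 and 8.96 CPM and leukocyte markers to 6.45, 7.16 and 8.03 CPM. Endothelial markers summed to 127, 105 and 128 CPM, of which EGFL7 gave 118, 101 and 123 CPM. The endothelial gene CLDN5 had 59 UMIs in the bottom library, all in 15 cells (0.769%), against 0 and 1 UMI in the top libraries. Those 15 cells were picked by at least 3 UMIs of 8 endothelial markers, PECAM1 and CLDN5 among them and EGFL7 not. Their PECAM1 level (173 CPM) thus follows from the choice. They also held VIM (1834 CPM) and EPCAM (476 CPM). The same rule picked 10 stretched top and 18 unstretched top cells, with PECAM1 at 252 and 108 CPM and VIM at 14.8 and 13.8 CPM. The 15 bottom cells had 606 CPM of S100A4 and 6985 CPM of S100A6. Leaving out the picked cells of all libraries changed no call of an S100 gene.

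The unit of the levels is CPM, the counts of a gene summed over a library and scaled to a common total of UMIs. A 3′ library counts the end of a transcript whatever its length, so the values were not divided by gene length, and levels of different genes can also differ in capture. Together the 10 genes made up 1.497% of all UMIs in the stretched bottom, 1.252% in the stretched top and 1.017% in the unstretched top library. S100A6 was the highest in each library, S100A4 was second and S100P was last. S100A10, S100A11, S100A13, S100A14, S100A16, S100A2 and S100A3 lay between in that order in the bottom library. In the stretched top, S100A11 (915 CPM) stood above S100A10 (834 CPM), while in the unstretched top S100A10 (807 CPM) stood above S100A11 (669 CPM) and S100A14 (345 CPM) above S100A13 (322 CPM). With 1 library per group, the spread between libraries of a group is unknown, so none of these neighbours can be called different.

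**Figure D1:**
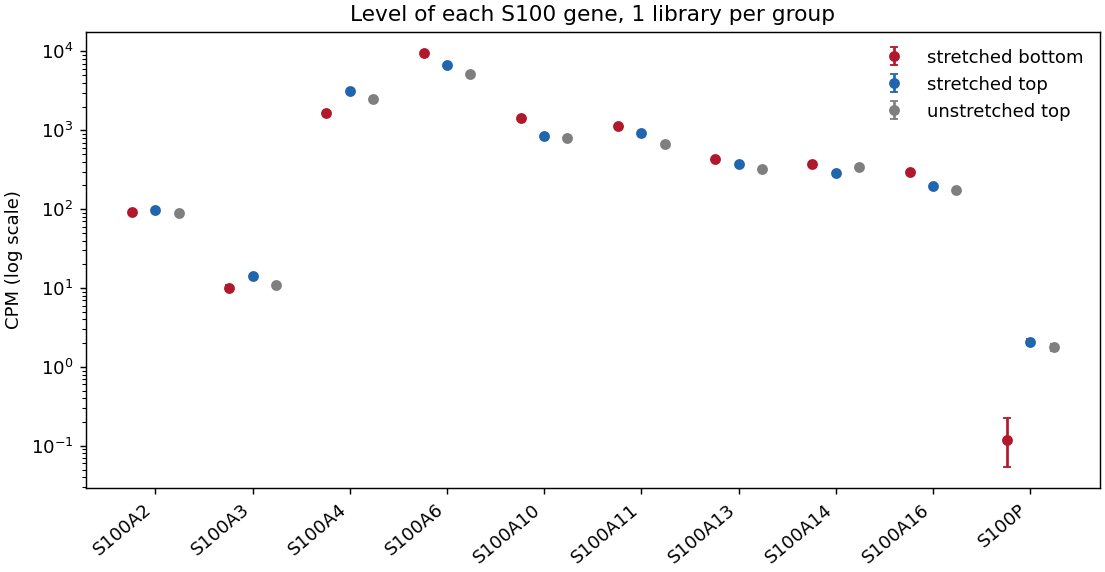
Level of each of the 10 S100 genes in CPM (log axis), 1 point per library, with exact Poisson 95% intervals that cover counting error only and are mostly narrower than the points. S100A4 is lower in the stretched bottom library than in both top libraries (1670 against 3154 and 2510 CPM), S100A6, S100A10 and S100A16 are higher, and S100P is near 0 CPM in the bottom library.

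Cells from the bottom channel were compared with cells from the top channel of the same stretched condition, which asks how recovered invaded cells differ from those that stayed. S100A4 was lower in the bottom library, S100A10 and S100A16 were higher, and S100A6, by far the most abundant member, was higher by a little less than the 1.5-fold used here as the call. Calls covered the 9 members that reached 10 CPM in the bottom or the stretched top. Of these, 2 passed 1.5-fold as higher, against a background of 7.93% of the 8870 genes examined, and 1 passed it as lower, against 11.0%. The median log2 ratio of the 9 was 0.29, beside −0.0045 for all genes, computed with 1 CPM added to each level. The background depended on level: among the 3308 genes of at least 50 CPM in either library the median was 0.15. Of those, 436 were called higher and 230 lower.

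S100A4, which binds non-muscle myosin IIA and regulates its filaments, stood at 1670 CPM in the stretched bottom, 3154 in the stretched top and 2510 in the unstretched top library. Of the 9 members examined for calls it alone was more than 1.5-fold below the stretched top, by 1.89-fold (95% interval 1.88 to 1.90; log2 ratio −0.92), and it was below the unstretched top level as well. Per 100 UMIs of S100A6 there were 17.5 UMIs of S100A4 in the bottom, 47.4 in the stretched top and 47.9 in the unstretched top library. This ratio inside a library does not depend on scaling, and it separated the bottom library from both top libraries, which were near each other. S100A4 made up 11.2% of the members' UMIs in bottom cells, against 25.2% for the stretched top and 24.7% for the unstretched top. MYH9, the myosin heavy chain that S100A4 binds, stood at 83.1, 95.5 and 106 CPM in the same order of libraries.

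S100A6, or calcyclin, which binds the ubiquitin-pathway adaptor CACYBP, was at 9535 CPM in the stretched bottom, 6650 in the stretched top and 5243 in the unstretched top library. The bottom library had the highest level and the unstretched top the lowest, and the bottom level was 1.43-fold the stretched top level (log2 ratio 0.52). S100A6 alone was 63.7% of the members' UMIs in bottom cells, against 53.1% in stretched top and 51.5% in unstretched top cells. CACYBP itself was 1.54-fold higher in the bottom library, at 288 CPM against 187 CPM in the stretched top.

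S100A10, which with annexin A2 forms a complex at the plasma membrane that binds plasminogen, was at 1441 CPM in the stretched bottom, 834 in the stretched top and 807 in the unstretched top library. The top libraries were near each other and the bottom was 1.73-fold above the stretched top (1.71 to 1.74; log2 ratio 0.79), the largest ratio of any member. ANXA2 was also highest in the bottom library, at 1875 CPM against 1309 and 1073 CPM. Per 100 UMIs of ANXA2 there were 76.9 UMIs of S100A10 in the bottom, 63.7 in the stretched top and 75.2 in the unstretched top library, so this ratio did not set the bottom apart from both.

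S100A11, a partner of annexin A1, was at 1121 CPM in the stretched bottom, 915 in the stretched top and 669 in the unstretched top library. S100A13, which takes part in the release of FGF1 and interleukin-1 alpha without a signal peptide, was at 427, 371 and 322 CPM. For both genes the order was bottom, stretched top, unstretched top, and the bottom level was 1.23-fold (S100A11) and 1.15-fold (S100A13) the stretched top level. Of the last 1000 exonic bases of S100A13, 20.2% are shared with AL162258.1 on the same strand, so some of its UMIs may be ambiguous. S100A11 has 2 processed pseudogenes on chromosome 7 that are not among the features.

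S100A16 and S100A14 are neighbours in the block whose proteins can bind each other, and S100A14 is mainly an epithelial gene. S100A16 stood at 297 CPM in the stretched bottom, 197 in the stretched top and 173 in the unstretched top library, 1.51-fold higher in the bottom than in the stretched top (1.49 to 1.53; log2 ratio 0.59). This call sits on the threshold, and its interval reaches to both sides of 1.5. S100A14 was at 373, 286 and 345 CPM, the only tested member with its lowest level in the stretched top library, and was 1.30-fold higher in the bottom than in the stretched top.

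S100A2 was at 92.2 CPM in the stretched bottom, 99.0 in the stretched top and 89.9 in the unstretched top library, the smallest difference of any member (1.07-fold lower in the bottom than in the stretched top). S100A3, a cysteine-rich protein known from the hair cuticle, was at 10.1, 14.4 and 11.1 CPM, 1.42-fold lower in the bottom than in the stretched top (1.31 to 1.54). It lies inside the span of S100A4, but its last 955 exonic bases share no base with another gene on the same strand. Its level was close to the 10 CPM minimum, and its call as lower depended on the setting.

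**Figure D2:**
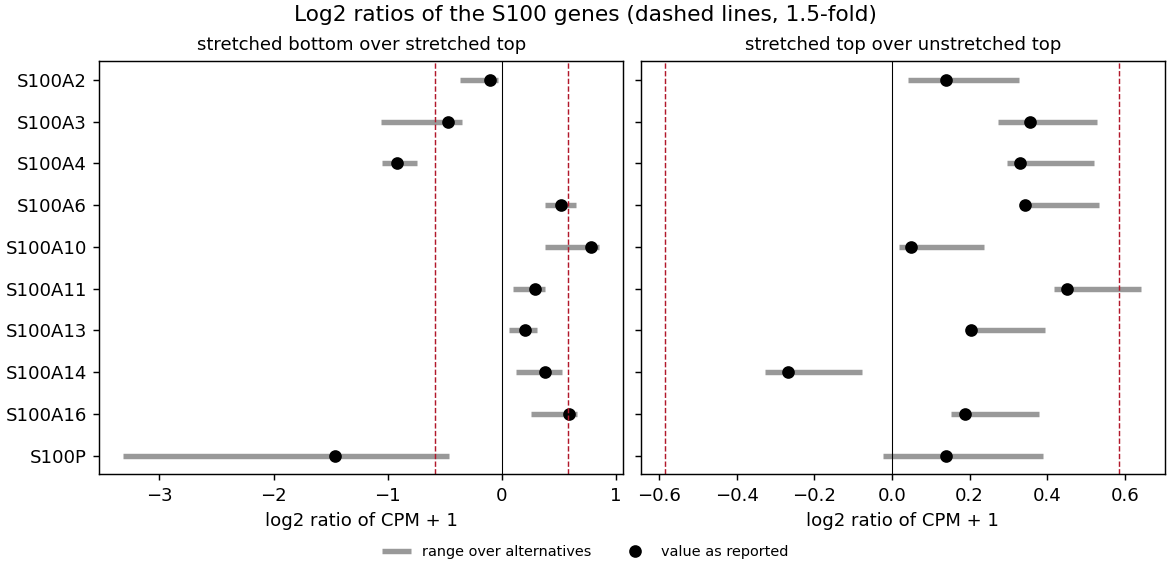
Log2 ratios of the S100 genes, computed on CPM + 1, stretched bottom over stretched top (left) and stretched top over unstretched top (right). Black points are the values as reported, grey bars the range over 16 ways of processing the counts, and dashed lines mark 1.5-fold; the axes differ. The S100A4 bar on the left (−1.05 to −0.74) lies wholly beyond 1.5-fold lower, whereas those of S100A10 (0.38 to 0.86) and S100A16 (0.26 to 0.66) reach inside the 1.5-fold line.

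Depth moved with the comparison, so the genes were also read within bands of UMIs per cell. From 1000 to 40000 UMIs per cell, in 4 bands, the log2 ratio of S100A4 between the bottom and the stretched top was −1.05, −1.01, −1.32 and −0.76, from the shallowest to the deepest band. S100A4 was thus beyond 1.5-fold lower in each of them. S100A6 had 0.07, 0.24, 0.20 and 0.52, higher in every band but by little in the shallow ones. S100A10 had 0.33, 0.21, −0.12 and 0.38, with no band at 1.5-fold, and S100A16 had 1.12, 0.54, 0.04 and 0.26. For S100A10 and S100A16 the higher level in the bottom library was therefore smaller than 1.5-fold in the band of 20000 to 40000 UMIs (400 bottom and 1462 stretched top cells). S100A11 had 0.07, 0.17, −0.48 and 0.10, S100A13 had 0.16, −0.22, −0.43 and 0.20, and S100A14 had 0.34, −0.01, −0.12 and 0.13. Each of these genes was thus lower in the bottom library between 10000 and 20000 UMIs. Over 40000 UMIs there were 994 bottom cells, 103 unstretched top cells and only 12 stretched top cells, too few for a firm comparison. There S100A4 stood at 1685 CPM in the bottom, 2123 in the stretched top and 1980 in the unstretched top cells. The log2 ratio of S100A4 to the stretched top was −0.33, so it was under 1.5-fold lower in this deepest band. In those 994 cells S100A10 stood at 1530 CPM, against 1190 CPM in the bottom cells of 20000 to 40000 UMIs. Deeper sequencing of the bottom cells and more RNA per cell cannot be told apart.

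**Figure D3:**
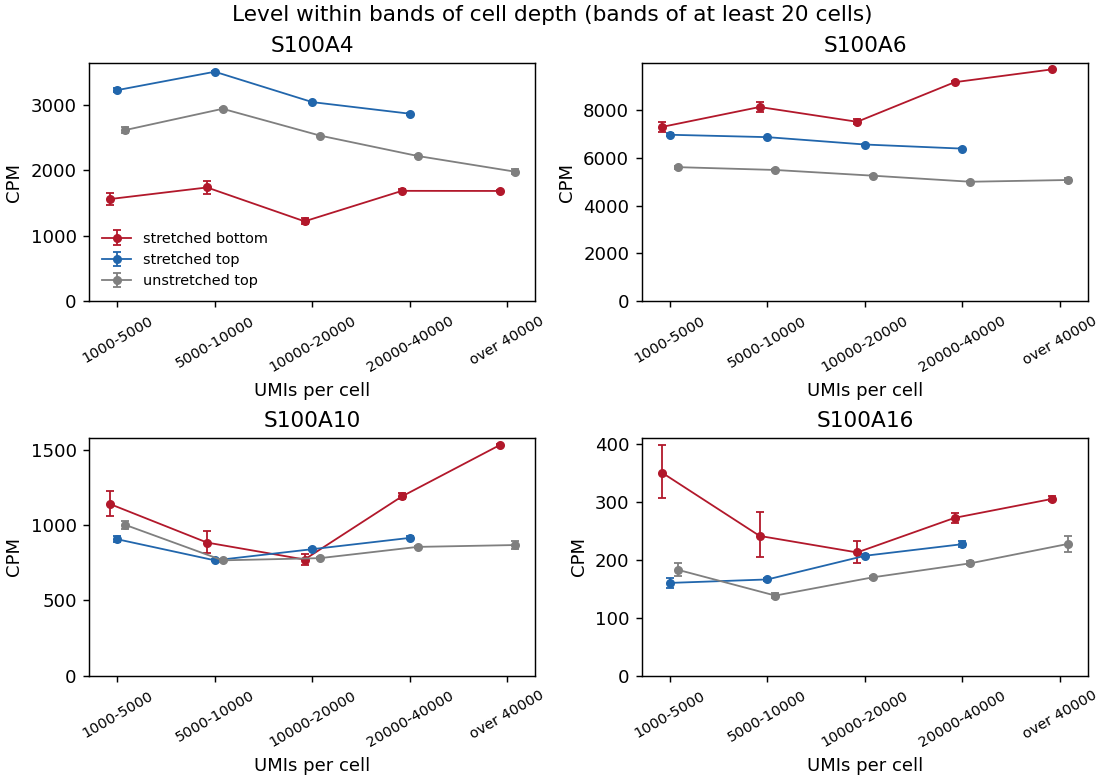
Level in CPM of S100A4, S100A6, S100A10 and S100A16 within bands of UMIs per cell, for bands of at least 20 cells, with exact Poisson 95% intervals. S100A4 lies lowest in the stretched bottom library in every band, and S100A6 highest. Above 40000 UMIs S100A4 stands at 1685 CPM in the bottom against 1980 CPM in the unstretched top library. S100A10 of the bottom library is close to the top libraries between 5000 and 20000 UMIs and reaches 1530 CPM above 40000 UMIs.

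Per cell, the median count in the stretched bottom, the stretched top and the unstretched top was 35, 28 and 25 UMIs of S100A4 and 318, 58 and 53 UMIs of S100A6. To compare cells at the same depth, each was thinned to 3000 UMIs, which left 1709, 18916 and 15699 cells and set aside 242, 1205 and 1507 shallower ones. In thinned cells the median of S100A4 was 3, 9 and 7 UMIs, and that of S100A6 was 25, 18 and 14 UMIs. The shift was thus seen in the typical cell for both genes, in opposite directions.

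At equal depth S100A4 went undetected in a larger share of cells of the bottom library. After thinning, 83.6% of bottom cells had a UMI of S100A4 (95% Clopper-Pearson interval 81.8 to 85.3), against 97.1% of stretched top and 95.7% of unstretched top cells. Before thinning the shares were 95.4%, 98.8% and 98.7%. A Poisson count with the bottom mean of 4.99 UMIs would give 99.3%, and the variance was 6.10 times the mean in the bottom, 4.37 times in the stretched top and 3.99 times in the unstretched top library. S100A4 thus varied between cells beyond counting, most so in the bottom. No cell type here is known to lack these genes, so the share that free RNA gives could not be measured. S100A10 was found in 91.3%, 81.5% and 79.5% of thinned cells, S100A16 in 52.3%, 39.7% and 35.9%, and S100A2 in 18.5%, 21.6% and 20.1%, while before thinning S100A2 was found in 65.8%, 48.4% and 48.2%. For S100A2 the bottom library had the highest share before thinning and the lowest at equal depth, and its CPM lay between those of the top libraries, so no order is read from these shares.

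**Figure D4:**
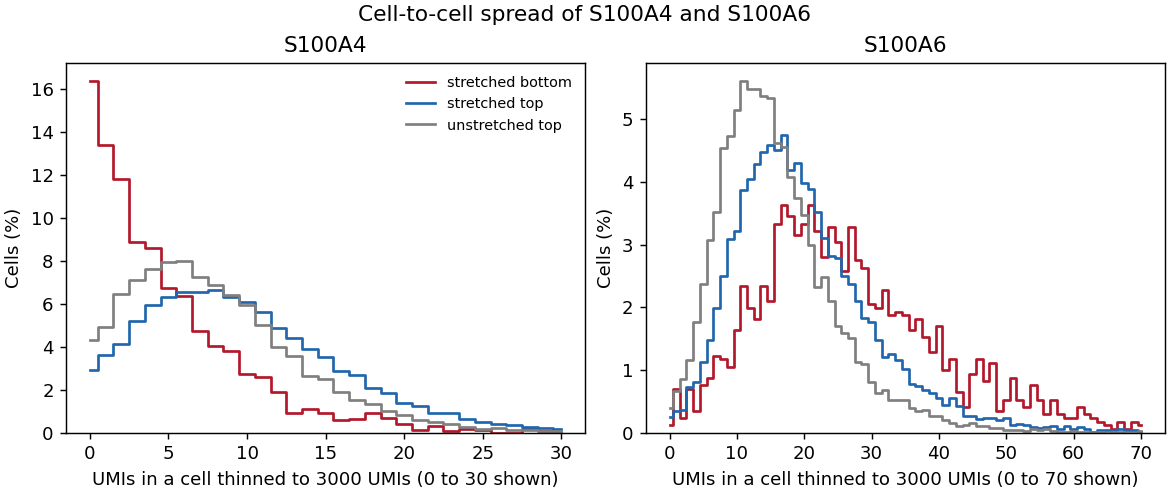
Share of cells (%) by number of S100A4 UMIs (left, 0 to 30 shown) and S100A6 UMIs (right, 0 to 70 shown) after thinning each cell to 3000 UMIs, 1 line per library. For S100A4 the stretched bottom line peaks at 0 UMIs (16.4% of cells, against 2.91% and 4.30%), and for S100A6 it lies to the right of both top libraries.

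The 280 thinned bottom cells without an S100A4 UMI were compared, as a description, with the 1429 that had one. In their full counts the 280 had a median of 5 UMIs of S100A4 and 35 had none, so most had S100A4 UMIs that thinning left out. S100A6 stood at 7317 CPM in the cells without and 9611 CPM in those with S100A4, and S100A2 at 46.4 against 93.3 CPM. S100A16 (288 against 278 CPM) was close in both, and S100A10 was lower in the cells without (1168 against 1344 CPM). Of the epithelial genes, EPCAM was at 592 CPM in the cells without, against 513 CPM, and KRT19 at 1274 against 1554 CPM. The cells without S100A4 had near the same share in called G2M (47.5% against 46.4%) and had a median of 39704 against 45335 UMIs. The mesenchymal intermediate filament gene VIM was at 89.3 CPM in the cells without and 11.2 CPM in those with S100A4, but this rested on a few cells. Without the endothelial-marker cells, an alternative added after seeing the data, VIM had 1 UMI in the 273 cells left without S100A4 (1.22 CPM) and 46 UMIs in the 1421 with it (10.8 CPM). In the top libraries S100A10 went the other way, at 1203 CPM in cells without and 803 CPM in cells with S100A4 in the stretched top, and at 1194 against 772 CPM in the unstretched top. S100P did so too, at 26.0 against 1.14 CPM and 8.89 against 0.843 CPM. Most S100P UMIs of the top libraries sat in the APOA1 cells described below. Top cells without S100A4 were also more often in called G2M than those with it. The shares were 35.0% against 26.8% in the stretched and 35.3% against 25.2% in the unstretched top. What APOA1 cells or phase contribute to this difference of S100A10 was not tested.

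Bottom cells were more often called G2M: 46.6% of them, against 27.1% for the stretched and 25.6% for the unstretched top, with 25.04%, 53.7% and 53.8% in G1. Phases were called from gene scores, in which free RNA also takes part. S100A4 was at 1422 CPM in G2M and 2438 CPM in G1 cells of the bottom library, 2644 against 3671 CPM in the stretched top and 2052 against 3007 CPM in the unstretched top. S100A4 was thus lower in G2M than in G1 in each library, with log2 ratios of −0.78, −0.47 and −0.55, and within each phase it was lower in the bottom than in the stretched top. S100A6 had −0.70, −0.35 and −0.35, and S100A14 −0.88, −0.33 and −0.24. S100A10 (−0.30, 0.19 and 0.10) and S100A16 (−0.42, 0.23 and 0.19) were lower in G2M only in the bottom library. In G1 cells the bottom library had its highest S100A6 level, 13640 CPM, against 7489 CPM for the stretched and 5919 CPM for the unstretched top. Between the bottom and the stretched top the log2 ratio of S100A4 was −0.59 in G1, −0.88 in S and −0.89 in G2M cells. S100A4 was thus only just past 1.5-fold lower in G1. In the same order S100A10 had 1.12, 0.70 and 0.63, S100A16 had 1.06, 0.35 and 0.41, and S100A6 had 0.86, 0.48 and 0.52. Depth was not matched within a phase. With G1, S and G2M cells given equal weights the log2 ratio of S100A6 between the bottom and the stretched top was 0.65, past the 1.5-fold threshold.

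**Figure D5:**
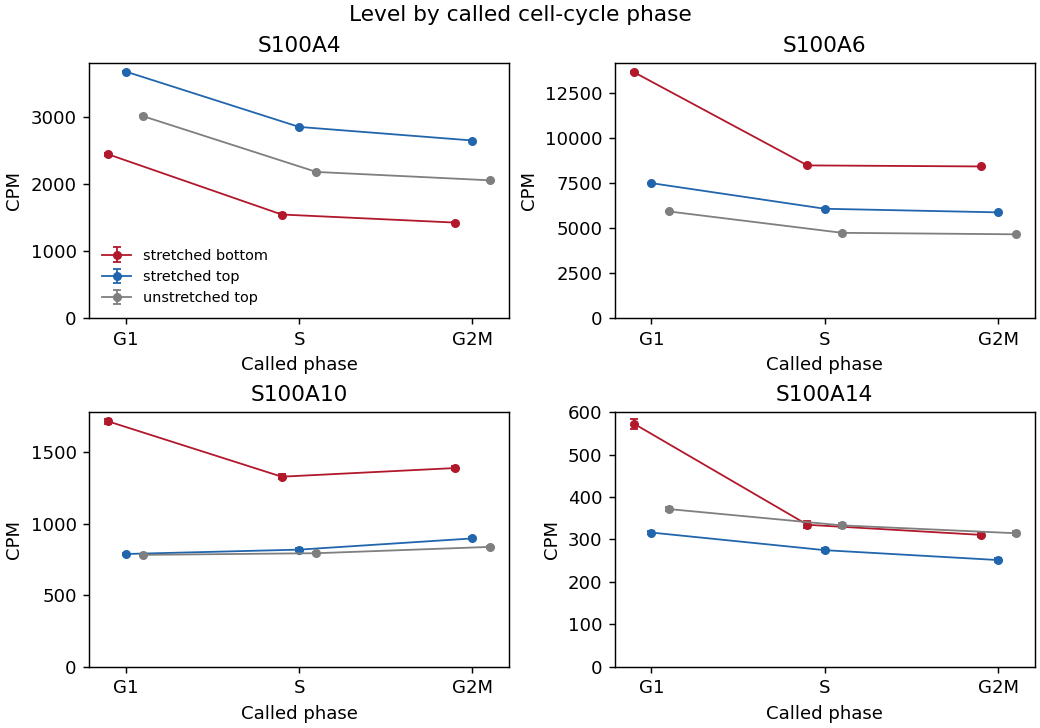
Level in CPM of S100A4, S100A6, S100A10 and S100A14 in cells called G1, S or G2M, 1 line per library, with exact Poisson 95% intervals. S100A4 and S100A6 are highest in G1 in every library; S100A4 of the stretched bottom lies below both top libraries in each phase, and S100A6 above them.

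Stretch without a change of channel was read from the top channels. No member reached 1.5-fold between the stretched top and the unstretched top library: of the 9 examined, 0 were higher, against a background of 0.175% of 9119 genes, and 0 were lower, against 0.592%. The median log2 ratio of the 9 was 0.20, beside −0.16 for all genes, and 8 of the 9 were above 0, as were 1626 of the 9119 genes. For the 3251 genes of at least 50 CPM in either library the median was −0.09. Only S100A14 was lower in the stretched top (286 against 345 CPM, 1.20-fold lower). S100A11 had the largest ratio, 1.37-fold (log2 ratio 0.45), followed by S100A3 (1.30-fold, 0.35), S100A6 (1.27-fold, 0.34) and S100A4 (1.26-fold, 0.33). S100A10 differed least (log2 ratio 0.05). S100A4, S100A6 and S100A11 were higher, and S100A14 lower, in each of the 4 depth bands up to 40000 UMIs. Scaling mattered: with TMM or median of ratios factors the median of all genes moved to 0.02 or 0.03, S100A11 passed 1.5-fold at 0.63 or 0.64, and S100A14 came nearer to 0, at −0.08 with median of ratios. Calls over all genes were then 70 or 76 higher and 10 lower, against 16 higher and 54 lower, and with totals free of mitochondrial and ribosomal protein genes 24 higher and 44 lower. Both comparisons share the stretched top library, so a gene's ratios in them are not independent.

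S100P, whose protein binds ezrin and the receptor AGER, was rare: 9 UMIs in the stretched bottom, 436 in the stretched top and 379 in the unstretched top library, or 0.117, 2.07 and 1.78 CPM. It was not examined for calls, being under 10 CPM in each, and its bottom level was 17.6-fold below the stretched top, with a counting interval of 9.19 to 38.8. A UMI was found in 0.410%, 1.03% and 0.976% of cells, and in 0.0585%, 0.407% and 0.287% after thinning. Most S100P UMIs of the top libraries sat in a small set of cells with at least 5 UMIs of APOA1, an apolipoprotein gene of enterocytes and hepatocytes. There were 373 such cells in the stretched top, 359 in the unstretched top and 0 in the bottom library. They held 325 of the 436 S100P UMIs (74.5%) and 311 of the 379 (82.1%), at 58.5 and 48.4 CPM, against 0.541 and 0.330 CPM in the other kept cells of the same libraries. Without them, S100P was at 0.117 CPM in the bottom and 0.541 CPM in the stretched top library. In the same APOA1 cells S100A4 was lower (1295 against 3204 CPM in other stretched top cells, 866 against 2562 CPM in other unstretched top cells) and so was S100A6 (3100 against 6746 CPM, 1927 against 5346 CPM), while S100A10 was higher (1576 against 814 CPM, 1426 against 788 CPM). Ezrin (EZR) was at 823 CPM in the bottom, 605 in the stretched top and 583 in the unstretched top library, and AGER at 1.80, 1.72 and 2.23 CPM.

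Genes that work with the family were read as lists. Of 20 S100 binding partners, 16 were examined, and between the bottom and the stretched top 1 was called higher (CACYBP, above) and 1 lower (AHNAK). AHNAK, a giant scaffold protein bound by the S100A10 and annexin A2 complex, was at 82.0 against 135 CPM (1.64-fold lower). The median log2 ratio of the list was 0.18. Of 12 annexins, 5 of which are also in the partner list, 8 were examined and 0 called, with a median of 0.19 and the largest ratios for ANXA2 (0.52) and ANXA5 (0.35). Of 28 other EF-hand genes, 23 were examined and 0 called, with a median of 0.17 and the largest ratios for RCN2 (0.51), a calcium-binding protein of the endoplasmic reticulum, and for the calmodulin gene CALM2 (0.48). Between the stretched and the unstretched top library 0 genes of these lists were called. Their medians were −0.13, 0.04 and −0.04, beside −0.16 for all genes, with SYT1 at −0.35 and ANXA11 at −0.33 among partners, ANXA3 at 0.45 and ANXA11 at −0.33 among annexins, and CETN2 at 0.38 and RCN1 at 0.26 among EF-hand genes. MYH9, ANXA2, EZR and AGER were given above as the partners of single members, a choice made with their values known.

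Of the 12 other features with an S100 symbol, 3 reached 1 CPM in a library. S100PBP, which encodes a binding protein of S100P and is no S100 protein itself, was at 25.1 CPM in the stretched bottom, 34.8 in the stretched top and 39.3 in the unstretched top library. S100A5 was at 6.51, 9.50 and 11.8 CPM and S100A1 at 1.54, 4.78 and 4.38 CPM, so all 3 were lowest in the bottom library. Of the last 1000 exonic bases of S100A1, 52.7% lie opposite other genes, S100A13 among them. S100A9 had 0 UMIs in the bottom library, which allows up to 0.0391 CPM, and 0.398 and 0.348 CPM in the top libraries, with 91.7% and 87.8% of its UMIs in the APOA1 cells. S100A8, its usual dimer partner, had 0 UMIs in all 3 libraries.

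Across cells of a library, correlations of the thinned log counts were computed among the 7 members with at least 100 CPM in each library and against 2591 genes. They are descriptions over 1709, 18916 and 15699 cells that share a library and a total of 3000 UMIs, and cells are not replicates. The nearest genes of a member are those whose smallest r over the libraries was highest, so the order inside a single library can differ. The highest r of S100A4 was with S100A6 (0.32, 0.36 and 0.34), followed by RPS12 and FTH1, ribosomal protein and ferritin genes. S100A4 and S100A10 had 0.14, −0.05 and −0.03. The genes nearest to S100A6 were FTH1 (0.53, 0.36 and 0.39), the keratin gene KRT19 and the galectin gene LGALS1. S100A10 was nearest to TMSB10, S100A11 (0.38, 0.24 and 0.20) and LGALS1, and S100A11 to TMSB10, S100A6 (0.43, 0.27 and 0.24) and PHLDA2. In the bottom library alone, S100A10 had a higher r with S100A6 (0.42) than with TMSB10, S100A11 or LGALS1. S100A6 was also the nearest gene to S100A13 and to S100A14, and the second nearest to S100A16, after the thymosin gene TMSB10. In these sparse counts none of the values given exceeds 0.53.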

How the data were processed

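Droplet 3′ single-cell RNA libraries were analysed from 3 groups with 1 library each. The deposited files are matrices of raw UMI counts for genes and barcodes, which the authors made with Cell Ranger 7.0.0, per the file headers, on hg38, per the submitters' processing notes; the annotation version is not given in the sources used here. Barcodes were kept from 500 genes and 1000 UMIs upwards if MT- genes gave no more than 20% of UMIs, which left out 44.5% of stretched bottom, 20.1% of stretched top and 34.1% of unstretched top barcodes. UMIs were summed over kept cells per library and scaled to CPM. A UMI count of 0 (floor of 3 counts) allows up to 0.0391, 0.0142 and 0.0141 CPM. Ratios are log2 ratios with 1 CPM added, for genes of at least 10 CPM in either library, called at 1.5-fold, with no test. Of the 95% intervals, those of folds are exact conditional binomial, those of CPM exact Poisson and those of shares Clopper-Pearson. Phases were called with scanpy from 42 S and 52 G2/M genes on thinned cells. No doublet caller was run; leaving out the 10% of cells with the most UMIs stands in for it. Alternatives changed the cell filter, scaling, weights, depth, minor cell groups, CPM added, minimum level and threshold, 17 in all, and 2 more were added after the data were seen. Named genes were all members, other S100 features of at least 1 CPM, list genes past 1.5-fold or else the 2 of the list with the most extreme ratios, and the 3 genes nearest to a member across cells. The members and lists were chosen with earlier results of these data known. Ratios and intervals were tested on simulated data with known folds. The simulated library totals were Poisson counts without spread between cells or libraries, so they checked the computation only. Python 3.11.15, scanpy 1.11.5, scipy 1.17.1, numpy 2.4.6, pandas 2.3.3, matplotlib 3.10.9 and edgeR 4.0.16 (TMM factors, R 4.3.3) were used.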

Additional observations from a re-analysis of the deposited data

How the results depend on the processing

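No paired analysis was possible because each group had 1 library. Between the stretched bottom and the stretched top library, 2 members were called higher (S100A10 and S100A16) and 1 lower (S100A4). The count of higher calls was 1 (S100A10) with the stricter cell filter, with totals free of MT- and ribosomal protein genes, without barcodes found in more than 1 library and with 5 CPM added. It was 3 (with S100A6) with median of ratios scaling and with equal phase weights, 1 (S100A6) among cells of 20000 to 60000 UMIs, and 0 among cells of 20000 to 40000 UMIs, an alternative added after seeing the data, and at a 2-fold threshold. The count of lower calls was 2 with totals free of MT- and ribosomal protein genes, with equal cell weights and in both depth ranges (S100A3 and S100A4), 2 with a minimum of 1 CPM (S100A4 and S100P) and 0 at 2-fold. Between the top libraries the count of higher calls was 0, and 1 (S100A11) with TMM or median of ratios scaling. Over all genes the bottom comparison called 703 higher and 977 lower, 843 and 886 with TMM, 945 and 809 with median of ratios, and 395 and 1696 with totals free of MT- and ribosomal protein genes. The cause of these shifts was not tested. No log2 ratio of a member changed sign in 16 alternatives except that of S100P between the top libraries, which was 0.14 and became −0.02 among cells of 20000 to 40000 UMIs. Bands of shallower cells were not among these alternatives. Between the bottom and the stretched top, S100A10, S100A11, S100A13 and S100A14 changed sign at 10000 to 20000 UMIs. S100A13 (−0.22) and S100A14 (−0.01) did so at 5000 to 10000 UMIs as well. Between the top libraries, S100A2, S100A10 and S100A16 changed sign at 1000 to 5000 UMIs, and S100A10 was level at 5000 to 10000 UMIs (−0.0001). With 1 library per group, differences between chips, harvests or sequencing runs cannot be told apart from stretch or channel, and S100P and S100A3 are limited by their few UMIs.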

Other observations

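Barcodes left out for more than 20% MT- UMIs (1269 in the stretched bottom, 3415 in the stretched top and 7053 in the unstretched top library) were read in CPM over all genes other than MT- genes. S100A4 stood at 819 in left-out against 1745 in kept bottom barcodes, 3510 against 3510 in the stretched top and 2821 against 2774 in the unstretched top. S100A6 stood at 7137 against 9959, 6921 against 7401 and 5435 against 5792, and S100A10 at 654 against 1506, 762 against 929 and 757 against 892, in the same order of libraries. The left-out barcodes thus differed most from the kept ones in the bottom library for these 3 genes. Thinned bottom cells with a VIM UMI (48, against 1661 without) had 2465 against 1642 CPM of S100A4, 7542 against 9284 CPM of S100A6 and 90.3 against 364 CPM of S100A14. Without the endothelial-marker cells S100A4 stood at 2878 against 1645 CPM (41 and 1653 cells). In the top libraries S100A14 was also lower in cells with VIM, at 133 against 281 CPM in the stretched top (360 and 18556 cells) and 187 against 328 CPM in the unstretched top (241 and 15458 cells).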
